A study of Mus musculus with 4 samples.

Results

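The HoxA and HoxB genes described here were 10 named members of these 2 gene clusters, found in the table by their symbols. Of the 10, 9 were found among the 16673 genes of the table of normalized counts: Hoxa3, Hoxa5, Hoxa7, Hoxa9 and Hoxa10 of HoxA (5 genes), and Hoxb3, Hoxb4, Hoxb5 and Hoxb6 of HoxB (4 genes). Hoxb2 was not analysed here. RNA was sequenced from the lineage-negative (Lin–) part of mouse bone marrow, which is what remains after depletion of mature blood cells, at an age of 2 months. In the cKO group, 2 mice carried a Tie2 promoter-driven Cre on top of floxed Tet3 alleles, with the genotype Tie2+/cre; Tet3F/F. In the control group, 2 mice carried the floxed alleles without Cre (Tet3F/F). Both groups thus share the floxed alleles, and no group with unmodified Tet3 was analysed here. Tie2 (Tek) is active in endothelial cells and in early blood cells, so Cre is not limited to one blood lineage.

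Hox genes encode homeodomain transcription factors that lie side by side in clusters, and the order of the genes along a cluster follows the order in which they act along the body axis of the embryo. In blood, several HoxA and HoxB genes are transcribed in stem and progenitor cells and are switched off as the cells mature. HOX proteins bind DNA together with TALE homeodomain partners of the PBX and MEIS families, MLL-type methyltransferases keep the clusters active, and Polycomb complexes keep them silent. TET3 is a dioxygenase that converts 5-methylcytosine to its oxidised forms. The question was whether targeting Tet3 changes the levels of Hox transcripts in this fraction.

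Each mouse gave 1 library, with 28845037 and 30020188 reads counted to genes in cKO replicates 1 and 2, against 39199593 and 46673855 in control replicates 1 and 2. Tet3 counted over the whole gene, exons outside the floxed part included, measured 6400 and 5084 normalized counts in cKO libraries, against 5056 and 6593 in control libraries, and this value does not check the genotype. Xist, the RNA of the inactive X chromosome, had 87442 and 48951 normalized counts in cKO libraries, against 5.54 and 9.57 in control libraries, and Ddx3y, a Y chromosome gene, had 0 reads in both cKO libraries, against 3421 and 4604 reads in control libraries. The cKO libraries therefore carried female transcripts and the control libraries male ones, and genotype and sex cannot be told apart in any comparison below. Control replicate 2 stood apart in mitochondrial reads. The 13 mitochondrial protein genes took 1.26% and 0.989% of reads in cKO replicates 1 and 2, against 1.09% and 8.16% in control replicates 1 and 2. The 11 stem and progenitor markers read here (Hlf, Mecom, Procr, Mllt3, Fgd5, Meis1, Kit, Cd34, Flt3, Gata2 and Ly6a) were detected in every library. The stromal marker list (6 of 6 genes detected in every library) was summed at 4724 and 9211 normalized counts in cKO libraries, against 21076 and 19969 in control libraries. Collagen genes weighed heavily in this sum, with Col1a1 at 1258 and 3299 in cKO libraries, against 10275 and 8090 in control libraries. Of the 6 genes, 5 had a log2 fold change (cKO over control) below 0 and 1 above. The part of stromal cells in the results below was not tested.

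Sequences around these genes differ widely between members. The first set is the 250 bases upstream of the RefSeq start (build GRCm38.p6) of the strongest HoxA member and of a weaker one, shown with CG dinucleotides, the substrate context of TET enzymes, in capitals. Hoxa9 is at chr6:52227371-52227620 and Hoxa5 at chr6:52204588-52204837, both on the minus strand.
Hoxa9: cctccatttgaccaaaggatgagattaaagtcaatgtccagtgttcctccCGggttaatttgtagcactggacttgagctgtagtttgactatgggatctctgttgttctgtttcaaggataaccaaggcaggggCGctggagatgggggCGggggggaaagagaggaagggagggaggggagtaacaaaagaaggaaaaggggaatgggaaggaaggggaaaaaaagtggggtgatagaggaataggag
Hoxa5: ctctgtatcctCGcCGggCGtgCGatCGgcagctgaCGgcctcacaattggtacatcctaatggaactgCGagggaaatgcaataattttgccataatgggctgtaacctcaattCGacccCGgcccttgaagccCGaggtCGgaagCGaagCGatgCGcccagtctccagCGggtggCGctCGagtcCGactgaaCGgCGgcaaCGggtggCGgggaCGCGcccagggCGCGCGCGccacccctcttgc
The Hoxa9 window held 3 CG dinucleotides and the Hoxa5 window 28. Over 14316 promoters of genes in the table, the median was 14 and the middle range from the lower to the upper quartile ran from 7 to 22. Windows were found for 6 of the 9 members, 7 windows in all. Hoxb4 had 14 CG, Hoxa3 had 18, Hoxa7 had 7, and the 2 starts of Hoxa10 had 7 and 20. Only the Hoxa9 window therefore lay below the middle range of the table, and only the Hoxa5 window above it. The other member windows lay within that range, those with 7 CG at its lower edge. No member window held TGATTNAT, a site of HOX and PBX pairs, searched on both strands, and 1.33% of all windows did.

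The second set is the microRNAs that lie inside the clusters, since their seeds match 3′ untranslated regions of some members. Mature sequences are from RefSeq (GRCm38.p6), with the seed, bases 2 to 8, in capitals.
mmu-miR-196b-5p: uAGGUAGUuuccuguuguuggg
mmu-miR-196a-5p: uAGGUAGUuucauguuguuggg
mmu-miR-10a-5p: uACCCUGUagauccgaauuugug
Mir196b lies within the exons of Hoxa9 as annotated in GENCODE M21, and upstream of the RefSeq start of Hoxa9 used above. Mir196a-1 lies in the HoxB cluster, and miR-196a and miR-196b share the seed AGGUAGU. Mir10a lies beside Hoxb4 and has another seed. The libraries do not measure these mature microRNAs. A stretch complementary to the miR-196 seed was found in the longest annotated 3′ untranslated region (GENCODE M21) of 4 of the 9 members, and in 7.82% of 12972 such regions among genes in the table. Hoxa7 held 4 such sites, and Hoxa5, Hoxa9 and Hoxb6 held 1 each. The first site in each is shown with the match in capitals.
Hoxa7: aggcacagccaaaatACTACCTa
Hoxa5: gatatttttattcaaACTACCTa
Hoxa9: gcaaaaggaaagaaaACTACCTt
Hoxb6: ctggaaggagcacatACTACCTa
The miR-10a match was in Hoxa3 and Hoxb3, which are paralogues, and in 15.1% of all regions.
Hoxa3: actctttgataagaaACAGGGTa
Hoxb3: tgacttaacgtgaaaACAGGGTa
These matches are a description of the letters, and binding was not measured.

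All 9 members were transcribed in every library, and none passed the test between genotypes. The test was limma on log2(normalized count + 1), with p-values adjusted by Benjamini-Hochberg over 16598 genes and a threshold of 0.05. It called 0 of the 9 members, where 0.0723% of all genes tested were called (12 genes). Those 12 genes included Xist and the Y chromosome genes Ddx3y, Kdm5d, Uty and Eif2s3y, whose levels differ with sex. At an unadjusted p under 0.05 the count of members was also 0, against 6.1% of all genes. edgeR and DESeq2 on the recovered reads called 0 members as well, against 0.0723% and 0.645% of all genes. The median log2 fold change, cKO over control, was -0.14 over the 5 HoxA members and 0.17 over the 4 HoxB members, beside 0.01 over all genes tested. These medians come from a few genes each and were not tested, and the HoxA median turned to 0.18 without control replicate 2 and to 0.092 without cKO replicate 1. With 2 mice a group, an exact permutation test cannot go below a p of 0.33. A lower level in this bulk fraction could come from fewer cells of a type or from less RNA per cell, which cannot be told apart.

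**Figure D1:**
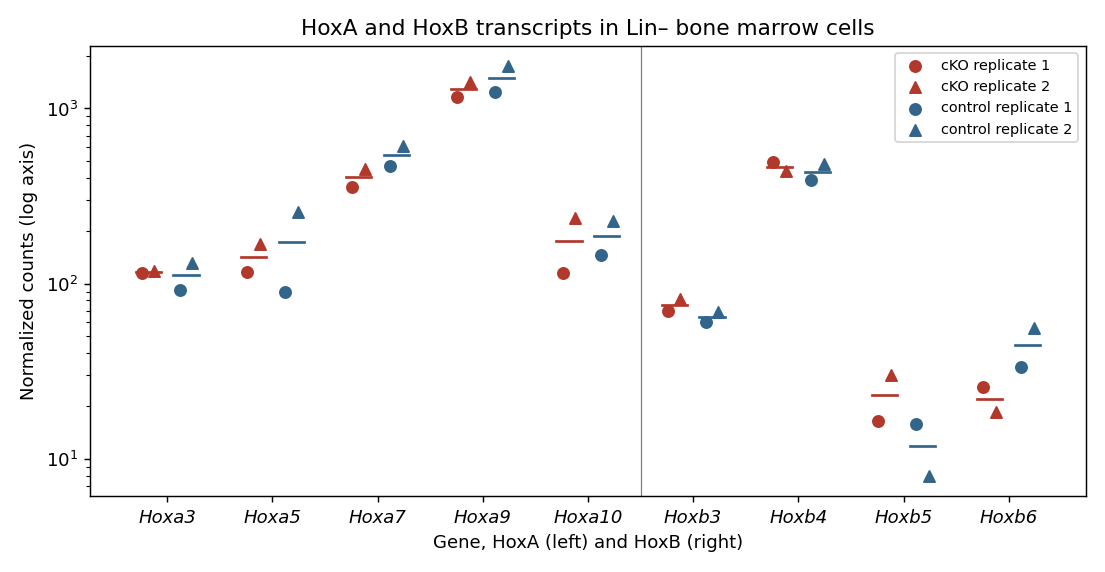
Normalized counts (log axis) of the 9 members in each library, with horizontal bars at the mean of the 2 cKO (red) and the 2 control (blue) libraries. Hoxa9 had the highest counts in every library, from 1170 to 1739, and Hoxb5 and Hoxb6 the lowest, from 7.98 to 55.8.

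Along HoxA, transcripts were highest at Hoxa9. Hoxa9 encodes a HOX protein needed for normal numbers of progenitor cells, and its forced expression drives myeloid leukaemia in mice. It had 1170 and 1420 normalized counts in cKO libraries, against 1245 and 1739 in control libraries, so the groups overlapped. The log2 fold change was -0.19 (SE 0.24, limma, Benjamini-Hochberg adjusted p = 0.86). Its 95% interval, the narrowest of the 9, ran from 1.68-fold lower to 1.29-fold higher in cKO libraries, so a 2-fold change in either direction lay outside it.

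Hoxa7, the neighbour of Hoxa9, had 357 and 453 normalized counts in cKO libraries, against 472 and 612 in control libraries. Both cKO libraries lay below both control libraries, though cKO replicate 2 and control replicate 1 differed little. Groups that do not overlap in either direction were found for 4 of the 9 members and for 38.7% of all genes tested. The log2 fold change of Hoxa7 was -0.42 (SE 0.28, limma, Benjamini-Hochberg adjusted p = 0.77), with a 95% interval from -1.07 to 0.24. Of the HoxA members it had the smallest p-value, 0.18 before adjustment (limma).

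Hoxa10, which like Hoxa9 is a gene of the AbdB class and promotes myeloid progenitor growth when overexpressed, had 116 and 236 normalized counts in cKO libraries, against 146 and 228 in control libraries. The cKO libraries bracketed the control libraries, with a log2 fold change of -0.14 (SE 0.46). Its replicates differed more than its groups, by 2.04-fold between the cKO libraries and 1.56-fold between the control libraries.

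Hoxa5, reported to shape the choice between myeloid and erythroid fates in human progenitors, was the least even member within a group. It had 117 and 168 normalized counts in cKO libraries, against 89.6 and 256 in control libraries, so that the control libraries lay on either side of the cKO libraries. The 2.86-fold gap between the control libraries was the largest within-group gap of any member. The log2 fold change was -0.11 (SE 0.55), with a 95% interval from -1.39 to 1.16.

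Hoxa3, an anterior gene of the cluster, had 116 and 117 normalized counts in cKO libraries, against 92.3 and 131 in control libraries. The cKO libraries were nearly equal and fell between the control libraries (log2 fold change 0.08, SE 0.41). Of the exon bases of Hoxa3, 27.1% also lie in exons of other genes, mostly on the opposite strand. The strand setting of the counting, not given in the sources used here, decides such reads, so the split of reads at such bases is uncertain.

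All 5 HoxA members were higher in cKO replicate 2 than in cKO replicate 1, and all 5 were higher in control replicate 2 than in control replicate 1. Over all genes tested, 26.0% were higher in replicate 2 of both groups. This split of the libraries was noticed in the values. For Hoxa3 the cKO libraries were nearly equal, and Hoxa4, another gene of the cluster, was lower in control replicate 2 than in control replicate 1. The 5 HoxA members had summed levels of 1875 and 2393 normalized counts in cKO libraries, against 2045 and 2965 in control libraries. The erythroid marker list (10 of 10 genes detected in every library) was summed at 44297 and 16773 normalized counts in cKO replicates 1 and 2, against 32736 and 93839 in control replicates 1 and 2. The stem and progenitor list was summed at 44930 and 42090 in cKO libraries, against 35545 and 38528 in control libraries. The highest HoxA sum and the highest erythroid sum were both in control replicate 2, whereas cKO replicate 2 had the second highest HoxA sum and the lowest erythroid sum. Other marker lists varied as well. The neutrophil list was summed at 372240 and 466088 in cKO libraries, against 591492 and 185848 in control libraries. The B and plasma list was summed at 65940 and 76540 in cKO libraries, against 43239 and 16340 in control libraries. Both sums were lowest in control replicate 2. The part of these cell types in the HoxA levels was not tested.

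In HoxB, most of the signal was Hoxb4. Hoxb4, which expands blood stem cells when overexpressed, had 495 and 437 normalized counts in cKO libraries, against 388 and 483 in control libraries. The groups overlapped, with a log2 fold change of 0.10 (SE 0.27, limma, Benjamini-Hochberg adjusted p = 0.93). The 95% interval ran from 1.43-fold lower to 1.66-fold higher in cKO libraries.

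Hoxb3, the next gene of the cluster, had 70.0 and 81.6 normalized counts in cKO libraries, against 60.0 and 68.6 in control libraries. Both cKO libraries lay above both control libraries, though cKO replicate 1 was barely above control replicate 2. The log2 fold change was 0.23 (SE 0.47, limma, Benjamini-Hochberg adjusted p = 0.91). Exons of the antisense gene Hoxb3os cover 52.9% of the exon bases of Hoxb3, so its value also depends on how reads of the pair were assigned.

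Hoxb5 and Hoxb6, which are neighbours, gave fold changes of opposite sign from few reads. Hoxb5, a gene used in mice as a marker of long-term stem cells, had 14 and 26 reads in cKO libraries, against 17 and 10 reads in control libraries. These are 16.3 and 29.9 normalized counts in cKO libraries, against 15.7 and 7.98 in control libraries. The cKO libraries were above the control libraries, with cKO replicate 1 and control replicate 1 almost level (log2 fold change 0.92, SE 0.85, limma, Benjamini-Hochberg adjusted p = 0.80). The counting interval of control replicate 2 alone (exact Poisson, 95%, counting error only) ran from 3.82 to 14.7 normalized counts, and that of cKO replicate 2 from 19.5 to 43.8. Those of cKO replicate 1 (8.93 to 27.4) and control replicate 1 (9.14 to 25.1) overlapped each other and both of these.

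Hoxb6, which expands stem cells and myeloid progenitors when overexpressed in mice, had 22 and 16 reads in cKO libraries, against 36 and 70 reads in control libraries. In normalized counts these are 25.7 and 18.4 in cKO libraries, against 33.2 and 55.8 in control libraries. Both cKO libraries lay below both control libraries (log2 fold change -0.96, SE 0.66, limma, Benjamini-Hochberg adjusted p = 0.77). The 95% interval of the log2 fold change ran from -2.50 to 0.59, so at this depth neither a large fall nor no change lay outside it.

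**Figure D2:**
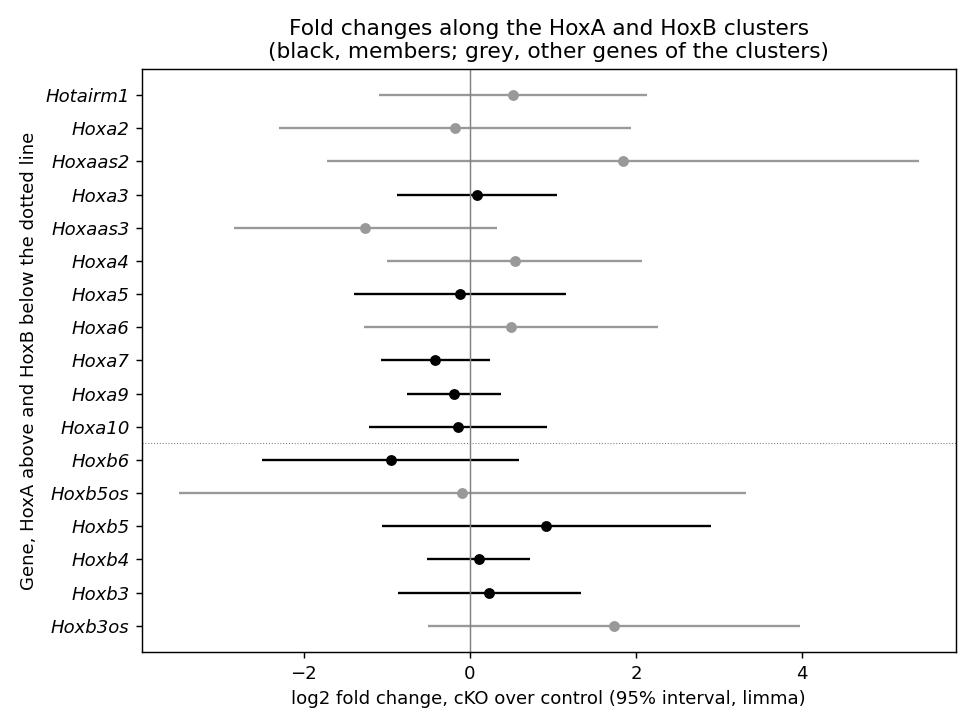
Log2 fold change (cKO over control) with its 95% limma interval for each HoxA and HoxB member (black), in cluster order. Shown in grey are the other HoxA genes in the table, Hotairm1 and the listed antisense genes. Every interval crosses 0, and the intervals are narrowest at Hoxa9 (-0.75 to 0.37) and Hoxb4 (-0.52 to 0.73).

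Levels along the clusters were compared per kilobase of exon, with lengths from the union of annotated exons (GENCODE M21). Within HoxA the level per kilobase over the 4 libraries was 19.0 ± 2.65 normalized counts per kilobase at Hoxa3, 83.9 ± 39.0 at Hoxa5, 165 ± 36.5 at Hoxa7, 250 ± 45.3 at Hoxa9 and 55.4 ± 18.3 at Hoxa10 (SD, n = 4). Over these 5 members the level was higher from each gene to the next up to Hoxa9 and lower again at Hoxa10. Hoxa6, which lies between Hoxa5 and Hoxa7 and is described further on, was lower than either per kilobase in every library. Hoxa9 made up 46.5% and 42.9% of the summed HoxA level per kilobase in cKO libraries, against 45.1% and 41.4% in control libraries. In HoxB the level was 16.5 ± 2.08 normalized counts per kilobase at Hoxb3, 176 ± 19.0 at Hoxb4, 6.27 ± 3.27 at Hoxb5 and 16.9 ± 8.25 at Hoxb6 (SD, n = 4). Hoxb4 made up 84.5% and 81.2% of the summed HoxB level per kilobase in cKO libraries, against 80.5% and 79.9% in control libraries. The profile of each cluster therefore kept its peak gene in all 4 libraries.

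**Figure D3:**
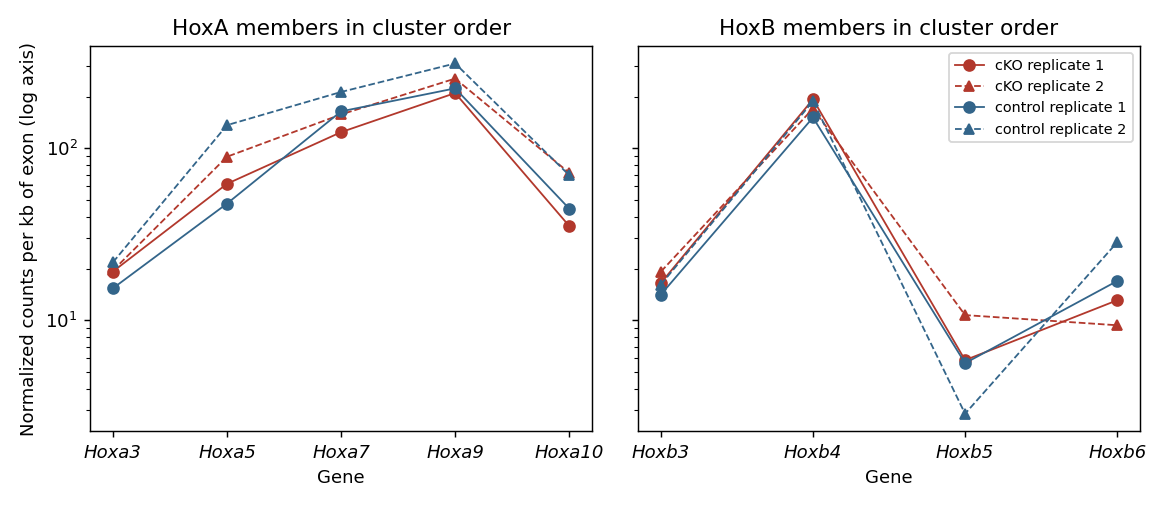
Normalized counts per kilobase of exon (log axis) for HoxA (left) and HoxB (right) members in cluster order, with 1 line for each of the 2 cKO (red) and 2 control (blue) libraries. Hoxa9 and Hoxb4 are the peaks of their clusters in all 4 libraries.

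Ordered by level per kilobase, Hoxa9 led, followed by Hoxb4, Hoxa7, Hoxa5, Hoxa10, Hoxa3, Hoxb6, Hoxb3 and Hoxb5. Hoxa9 was above Hoxb4 in 4 of 4 libraries, by 1.09-fold to 1.66-fold (1.88-fold to 2.87-fold with the longest transcript as the length). Hoxb4 and Hoxa7 could not be ordered, since each was the higher in 2 of 4 libraries, and the same held for Hoxa3 with Hoxb6 and for Hoxb6 with Hoxb3. Hoxa7 was above Hoxa5 and Hoxa5 above Hoxa10 in 4 of 4 libraries, although the ranges over libraries overlapped for both pairs. The ranges did not overlap for Hoxa10 above Hoxa3 or for Hoxb3 above Hoxb5. Between paralogues, Hoxa5 exceeded Hoxb5 by 8.33-fold to 47.6-fold per kilobase, and Hoxa3 exceeded Hoxb3 by 1.02-fold to 1.35-fold (1.77-fold to 2.35-fold with the longest transcript). HoxB took 33.6% and 26.1% of the summed level per kilobase of all 9 members in cKO libraries, against 27.5% and 23.8% in control libraries, and the groups overlapped. With the longest transcript as the length, the mean HoxB share over the 4 libraries was 20.7%, against 27.8% with all exons. By that length Hoxa7 ranked above Hoxb4 and Hoxb3 above Hoxb6, each in 3 of 4 libraries. Hoxa5 was then above Hoxa10 in 2 of 4 libraries, and the ranges of Hoxa10 and Hoxa3 overlapped.

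The other Hox genes in the table were few and weak. They were Hoxa2, Hoxa4, Hoxa6 and Hoxc6, 4 of 29 listed, and 0 of 4 were called. Hoxa4 had 32.7 and 75.8 normalized counts in cKO libraries, against 41.5 and 27.9 in control libraries. Its highest library was cKO replicate 2 and its lowest control replicate 2. Hoxa6 had 22.2 and 33.3 in cKO libraries, against 12.9 and 27.9 in control libraries. Hoxa2 had 9.34 and 42.5 in cKO libraries, against 17.5 and 30.3 in control libraries. Hoxc6 had 28.0 and 4.60 in cKO libraries, against 3.69 and 11.2 in control libraries. The groups overlapped for each of these 4 genes, and the cKO replicates differed several fold for Hoxa2 and Hoxc6. No HoxD gene was analysed here.

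Of the listed non-coding genes inside the clusters, 0 of the 5 in the table were called. Hoxaas3, antisense to the Hoxa3 to Hoxa7 part of the cluster, had 19 and 12 reads in cKO libraries, against 40 and 64 reads in control libraries (log2 fold change -1.26, SE 0.68, limma, Benjamini-Hochberg adjusted p = 0.76). Hoxb3os, antisense to Hoxb3, had 12 and 20 reads in cKO libraries, against 5 and 6 reads in control libraries (log2 fold change 1.73, SE 0.96, limma, Benjamini-Hochberg adjusted p = 0.76). The groups did not overlap for either antisense gene, and their gaps lay in opposite directions. In all, the groups did not overlap for 3 of the 5 non-coding genes, Hotairm1 included, and for 38.7% of all genes tested. Of the exon bases, 30.7% of Hoxaas3 and 76.2% of Hoxb3os also lie in coding Hox genes or their read-through partners on the other strand, so without knowledge of strand these reads may belong to either. Hotairm1, a non-coding gene at the anterior end of HoxA, had 33.9 and 25.3 normalized counts in cKO libraries, against 23.1 and 17.5 in control libraries. Hoxaas2 had 12 and 15 reads in cKO libraries, against 22 and 0 reads in control libraries. Hoxb5os had 1 and 22 reads in cKO libraries, against 4 and 16 reads in control libraries, and the groups overlapped.

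The genes that flank the clusters were read beside the members. At the anterior end of HoxA, Skap2, an adaptor protein gene, had 4832 and 5911 normalized counts in cKO libraries, against 6504 and 6307 in control libraries (log2 fold change -0.26, SE 0.19). At the anterior end of HoxB, Skap1, an adaptor of T cell signalling, had 540 and 401 normalized counts in cKO libraries, against 92.3 and 149 in control libraries. Its log2 fold change was 1.98 (SE 0.37), which limma did not call (Benjamini-Hochberg adjusted p = 0.41) and DESeq2 on the recovered reads did. Skap1 also stands in the T and NK marker list, whose summed level was 10706 and 10770 normalized counts in cKO libraries, against 9562 and 6518 in control libraries, with 8 of 8 genes detected in every library. For 7 of these 8 genes, Skap1 included, both cKO libraries lay above both control libraries, as for 19.2% of all genes tested. The median log2 fold change of the list was 1.86, and its values ran from -0.13 to 2.69. Whether those cells account for Skap1 was not tested. Of 7 flanking genes in the table, 0 were called, and their median log2 fold change was 0.05.

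Several TALE partners were strongly transcribed beside the members. Meis1, the cofactor of HOXA9, had 1918 and 2094 normalized counts in cKO libraries, against 1354 and 2047 in control libraries (log2 fold change 0.27, SE 0.24). Control replicate 1 was the low library and the other 3 were close together. Pbx2 had 2525 and 2902 in cKO libraries, against 2720 and 3032 in control libraries. Pbx3, which acts with HOXA9 in leukaemia, had 280 and 263 in cKO libraries, against 309 and 362 in control libraries. Pbx4 had 470 and 440 in cKO libraries, against 401 and 1019 in control libraries, with control replicate 2 far above the rest. For Pknox1 the log2 fold change was -0.01 (SE 0.21), and for Pbxip1, which encodes a PBX-binding inhibitor, it was 0.09 (SE 0.20). Meis3, a relative of Meis1, had 91.1 and 108 normalized counts in cKO libraries, against 17.5 and 43.1 in control libraries (log2 fold change 1.81, SE 0.61, limma, Benjamini-Hochberg adjusted p = 0.76). Of the 7 partners read here, 0 were called, 3 were above 0 and 4 below, and the median log2 fold change was -0.0077.

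Genes that act on the clusters, or that are linked to HOXA9 and MEIS1, were read from lists, which share a few genes such as Flt3 and Meis1. Of 15 genes of the MLL complexes and other Hox activators, 0 were called, 11 had a log2 fold change above 0, and the median was 0.16. Among all 16598 genes tested, 8424 were above 0. Kmt2a, which encodes MLL, had 8300 and 4610 normalized counts in cKO libraries, against 3727 and 4355 in control libraries (0.62, SE 0.29). Ash1l, a histone methyltransferase gene, had 3555 and 2672 in cKO libraries, against 2196 and 1852 in control libraries (0.61, SE 0.22). Of 16 Polycomb genes 0 were called, 9 were above 0 and 7 below, and the median was 0.05. Of 13 genes linked to HOXA9 and MEIS1 in blood or leukaemia cells, Meis1 itself included, 0 were called, 10 were above 0 and 3 below. Their median was 0.27, which is the value of Meis1, and their values ran from -1.25 to 0.69. Flt3, a cytokine receptor gene of progenitors, had 7456 and 6339 normalized counts in cKO libraries, against 5052 and 4999 in control libraries (0.45, SE 0.19). Bcl2, a survival gene, had 4896 and 4274 in cKO libraries, against 3009 and 3424 in control libraries (0.51, SE 0.19). Of the 11 stem and progenitor markers 0 were called, 7 were above 0, the median was 0.24, and for 5 both cKO libraries lay above both control libraries, as for 19.2% of all genes tested.

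Fold changes of 5 members turned with single libraries left out. Without control replicate 2, Hoxa9, Hoxa5 and Hoxa10 had log2 fold changes of 0.049, 0.64 and 0.18, the opposite sign to those with all 4 libraries. Without cKO replicate 1, Hoxa5 and Hoxa10 also turned, to 0.15 and 0.37. Without control replicate 1, Hoxa3 and Hoxb4 turned, to -0.17 and -0.054. Hoxa7 and Hoxb6 stayed below 0 and Hoxb3 and Hoxb5 above 0 under every one of the 15 alternatives that tested them (14 for Hoxb5 and Hoxb6, which a mean of at least 50 left out). For 6 of the 9 members the largest ratio between 2 libraries of a group exceeded the fitted fold between the groups.

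**Figure D4:**
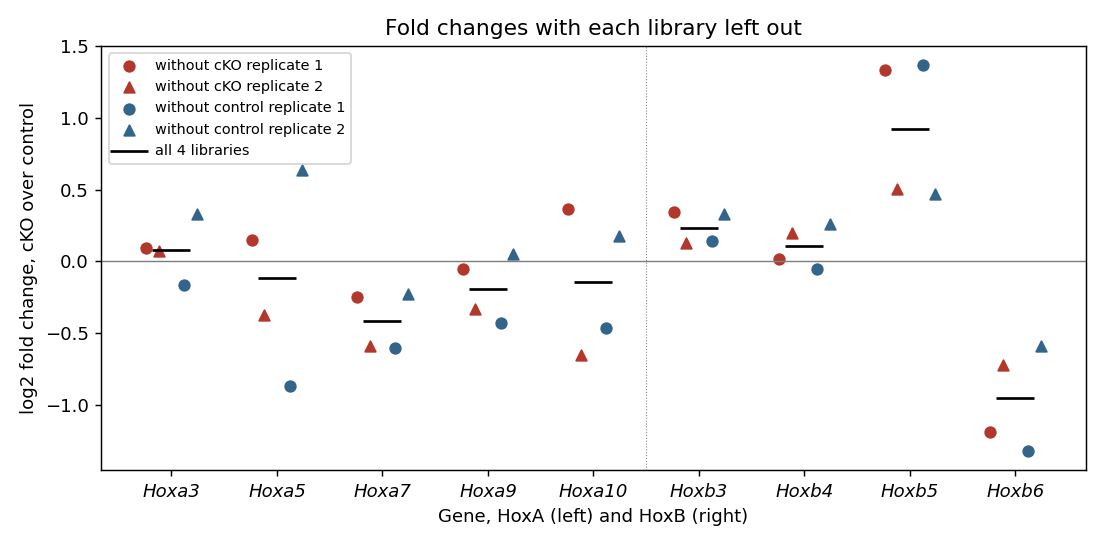
Log2 fold change (cKO over control) of each member with all 4 libraries (black bar) and with each library left out in turn (symbols). Hoxa5, Hoxa9 and Hoxa10 cross 0 when control replicate 2 is left out, whereas Hoxa7, Hoxb3, Hoxb5 and Hoxb6 keep their sign.

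Genes whose levels over the 4 libraries ran closest to the mean HoxA profile, by the root mean square difference of centred log2 values among 11650 genes with a mean of at least 100, were Syde1 (0.009), Trim13 (0.010) and Nmrk1 (0.033). In all, 57 genes lay within 0.1 of the HoxA profile. Around the flatter HoxB profile 984 genes did, led by Rexo4 (0.007), Ndfip1 (0.008) and Pus10 (0.012). With 4 libraries many genes share any profile.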

How the data were processed

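The deposited values are a normalized signal, which the authors obtained by scaling the reads of every gene with DESeq2 size factors, per the file headers. The submitters' processing notes name STAR 2.7.9a, Trim Galore 0.6.7, SAMtools, featureCounts and DESeq2, with genome build mm39. The settings, the annotation and strand handling were not given in the sources used here. Columns named wild type were taken as the control samples by group and number.

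All values were whole multiples of 1 read (100% within 0.1 read), so reads were recovered by division. The smallest sum over the 4 libraries was 41 reads. Replicates differed by more than counting noise. The labels say that the libraries come from separate mice.

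Genotypes were compared with limma, version 3.58.1 under R 4.3.3, using log2(normalized count + 1), which understates the change of low genes, with empirical Bayes and a trend, a mean of at least 10, two-sided, and all 4 libraries. Fold changes are cKO over control. Alternatives included edgeR 4.0.16 and DESeq2 1.42.0 on the recovered reads. The steps were tested on simulated data. The named genes were all members, every listed cluster, flanking or TALE gene in the table (some listed genes are not reported here), and up to 4 of smallest p per other list. The rule for the members names symbols and uses no measured value, but the members and lists were chosen with earlier results of these data known. Exon lengths and 3′ untranslated regions come from GENCODE M21 (GRCm38), another build than that of the reads.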

Additional observations from a re-analysis of the deposited data

How the results depend on the processing

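No member was called under any of the 15 alternatives, in limma, edgeR or DESeq2, and 125 of 133 member values kept their sign. Of the 8 that turned, 7 did so with a library left out, and quantile normalization turned Hoxa3 to -0.018. Leaving out each library, the values ran from -0.17 to 0.33 for Hoxa3, -0.87 to 0.64 for Hoxa5, -0.43 to 0.049 for Hoxa9, -0.65 to 0.37 for Hoxa10 and -0.054 to 0.26 for Hoxb4, and the median ran from -0.46 to 0.18 for HoxA and from 0.042 to 0.29 for HoxB. Over all genes, 5 were higher and 7 lower, against 2 higher with a mean of at least 50, with quantile normalization and without a trend, and 71 higher and 36 lower with DESeq2. Leave-one-out counts ran from 4 to 232 higher and from 5 to 161 lower, the most without control replicate 1. The cause was not tested. With the replicate number as a block, 3 genes were higher, 5 lower and 0 members called. Same-numbered libraries did not deviate together over genes (correlation -0.07, 2 pairs), and the labels give the number no meaning, so it was not taken as a pairing. With the longest transcript as length the HoxB share was 20.7%, since the lengths shrank mostly for HoxA genes. Depth limits Hoxb5 (10 to 26 reads) and Hoxb6 (16 to 70 reads) most. The Poisson intervals above and the Wilson intervals below cover counting error only, whereas the limma intervals also cover the spread between libraries.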

Other observations

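The neighbours Hoxb5 and Hoxb6 were set against each other after their values were seen. Hoxb5 made up 38.9% (Wilson 95% interval 24.8 to 55.1) and 61.9% (46.8 to 75.0) of the reads of the pair in cKO replicates 1 and 2, against 32.1% (21.1 to 45.5) and 12.5% (6.93 to 21.5) in control replicates 1 and 2. The share was higher in both cKO libraries, by 28.1 points on average, with an exact two-sided permutation p of 0.33, the smallest that 2 against 2 can give. The levels of both genes had already been seen not to overlap between groups, in opposite directions. The direction of the share was therefore fixed beforehand, and this p adds no support. The interval of cKO replicate 1 overlaps that of control replicate 1.

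The antisense gene Hoxb3os made up 16.7% (9.80 to 26.9) and 22.0% (14.7 to 31.5) of the reads of the Hoxb3 pair in cKO replicates 1 and 2, against 7.14% (3.09 to 15.7) and 6.52% (3.02 to 13.5) in control replicates 1 and 2. Hoxaas3 made up 5.85% (3.77 to 8.95) and 2.96% (1.70 to 5.09) of the reads it and Hoxa7 had together in cKO replicates 1 and 2, against 7.26% (5.38 to 9.73) and 7.70% (6.08 to 9.72) in control replicates 1 and 2. Both differences had an exact two-sided permutation p of 0.33, again the smallest possible. The levels of both antisense genes had already been seen not to overlap between groups, so this p adds no support. These 3 pairs were the only ones compared.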
